A study of Mus musculus with 8 samples.

Results

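Histone variants that cells make outside S phase are encoded by genes whose messages can carry a poly(A) tail. Messages of the clustered replication-dependent histone genes mostly lack one. For this comparison 9 mouse genes of the first kind were named. They are the H2A variant genes H2afx, H2afy, H2afz, H2afv and H2afj, the H3.3 genes H3f3a and H3f3b, and the linker histone genes H1f0 and H1fx, in the older symbols that the count table uses. The table held 8 of the 9 among 33435 named genes, and 7 of these were abundant enough to be tested among 11040 tested genes. H1fx was too low to be tested, and H1f0 was not analysed here. The rule that names them rests on gene function and uses no measured value.

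Canonical histones are made in bulk while DNA is copied, whereas variants replace them in chromatin at any time with the help of dedicated chaperones and remodelling complexes. H2A.Z marks promoters and enhancers, H3.3 is laid down at transcribed genes and at repeats, H2A.X is phosphorylated around DNA breaks, and macroH2A carries a large extra domain and is linked to repressed chromatin. In blood formation, progenitors divide rapidly and also rebuild their chromatin as they choose a lineage, so both kinds of histone supply are in use.

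The RNA came from C57BL/6J mouse fetal livers at stage E14.5. Hematopoietic stem and progenitor cells were infected with a Trim27 virus (its product is a ubiquitin ligase of the TRIM family) or with a GFP control virus, and myeloid progenitors were then sorted and sequenced in 4 libraries per group. Both groups thus shared strain, stage, viral infection and sort. The labels name neither the promoter of the virus nor how many fetuses were pooled, nor do they state if replicates were separate cultures or animals. Each p-value thus reflects library-to-library spread alone, and that spread may be technical.

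The GFP libraries held 9257889 to 10747794 counts each, against 10551137 to 16366571 for Trim27. Levels are given as CPM, counts scaled to a common library size corrected by TMM, a method that sets the typical gene to no change. Ribosomal protein genes took 26.6% to 26.7% of each GFP library and 18.5% to 19.3% of each Trim27 library. Trim27 itself rose from 180.5 ± 8.52 CPM to 292.7 ± 18.4 CPM (SD, n = 4 each), with a log2 fold change of 0.70 (edgeR adjusted p = 7.38e-13) that was 0.10 and not called with a trend on transcript length and its level removed. All 11 markers listed for myeloid progenitors had counts, with a summed level of 2038 to 2156 CPM (GFP) and 2282 to 2523 CPM (Trim27), although 7 of them fell and 3 rose. Of the other cell types, the 12 erythroid markers in the table summed to 1897 to 1957 CPM (GFP) and 1377 to 1564 CPM (Trim27), with none at 0 in every library, and the 7 megakaryocyte markers to 1059 to 1142 CPM and 827.3 to 863.2 CPM. The 11 markers of the B lineage summed to 66.6 to 161.9 CPM (GFP, highest in replicate 1) and 41.3 to 56.4 CPM (Trim27), and the 9 T and NK markers to 46.6 to 57.3 CPM and 113.0 to 117.3 CPM, with Ncr1 at 0. The 11 endothelial and stromal markers summed to 76.1 to 85.1 CPM (GFP) and 34.1 to 35.3 CPM (Trim27), with 6 at 0 that include Cdh5 and Kdr. The 10 macrophage markers, of which 7 including C1qa were at 0, summed to 0 to 1.20 CPM and 22.9 to 33.9 CPM. Of 12 hepatocyte markers 8, among them Alb, Ttr and Hnf4a, were at 0 in every library, and the list summed to 1.20 to 1.70 CPM (GFP) and 15.1 to 17.6 CPM (Trim27). In such bulk samples, fewer cells of a type and less RNA per cell cannot be told apart. The part of these cell types in the results below was not tested.

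The members differ in how far their reads can be told from those of near copies, so the start of the coding sequence is shown for each pair that encodes the same or nearly the same protein. H3f3a and H3f3b both encode H3.3, and H3f3c is a near copy of H3f3a. In the first 90 coding bases below, taken 5′ to 3′ from GENCODE M21 transcripts, capitals mark bases that differ from H3f3a.
H3f3a: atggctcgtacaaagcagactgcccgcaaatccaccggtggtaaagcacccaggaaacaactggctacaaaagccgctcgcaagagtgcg
H3f3b: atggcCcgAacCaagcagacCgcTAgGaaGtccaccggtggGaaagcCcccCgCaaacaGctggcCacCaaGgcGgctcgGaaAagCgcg
H3f3c: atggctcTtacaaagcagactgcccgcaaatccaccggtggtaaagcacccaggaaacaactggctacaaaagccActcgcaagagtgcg
H3f3b differed from H3f3a at 20 of these 90 bases and at 95 of all 411 coding bases. The longest run of identical bases between the 2 transcripts was 23. H3f3c differed from H3f3a at 4 of 411 bases, with an identical run of 267 bases, so short reads of this pair may be assigned to either gene. The H2A.Z genes H2afz and H2afv are shown in the same way, with capitals for bases that differ from H2afz.
H2afz: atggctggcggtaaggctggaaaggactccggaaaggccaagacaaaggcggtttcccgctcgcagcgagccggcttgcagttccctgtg
H2afv: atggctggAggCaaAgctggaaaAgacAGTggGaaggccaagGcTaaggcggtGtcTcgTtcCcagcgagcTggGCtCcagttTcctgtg
This pair differed at 19 of these 90 bases and at 81 of 387 coding bases (79.1% identical), and no identical run was longer than 14 bases.

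The H2A variant genes separated into genes that were lower and 1 gene that was higher in the Trim27 libraries. H2afz, H2afv and H2afj fell, by 0.59, 0.78 and 1.06 on the log2 scale, H2afy rose by 1.10, and H2afx was at -0.14. The H3.3 genes were at -0.12 and 0.18. In edgeR's quasi-likelihood fit, adjusted by Benjamini-Hochberg over all genes tested, 2 members rose and 5 fell, so that 7 of 7 tested members passed, where 85.5% of all tested genes passed (47.5% rose and 38.0% fell). The groups did not overlap for 5 of the 7, against 80.7% of all tested genes, with 2 of 7 higher (background 45.3%) and 3 of 7 lower (35.4%). Such counts sit near the background and are no result about the members, whose sizes and values by library are given one by one.

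H2afz, which encodes the main form of H2A.Z and was the most abundant member, was at 1371, 1471, 1378 and 1402 CPM in GFP replicates 1 to 4. In Trim27 replicates 1 to 4 it was at 968.7, 937.7, 926.0 and 909.2 CPM. Every Trim27 library lay below every GFP library, and the groups were far apart relative to their spread. The means were 1405 ± 45.6 CPM and 935.4 ± 25.1 CPM (SD, n = 4 each), and the log2 fold change was -0.59 (SE 0.04, edgeR adjusted p = 2.12e-13). Once a trend on transcript length was removed, its value was 0.06 (adjusted p = 0.168), no longer called, against a median of 0.32 over all tested genes in that fit. It was -0.33 with the level of that trend removed as well, -0.36 with TMM factors from abundant genes and -0.28 with library size alone, all 3 still called.

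H2afv, which encodes the other form of H2A.Z, was at 170.2, 140.3, 168.0 and 159.3 CPM in the GFP libraries. It was at 90.8, 90.4, 96.9 and 94.3 CPM in the Trim27 libraries. GFP replicate 2 was the lowest of its group, yet all Trim27 libraries were lower still. The mean fell from 159.5 ± 13.6 to 93.1 ± 3.06 CPM (SD, n = 4 each), and the log2 fold change was -0.78 (SE 0.06, edgeR adjusted p = 9.35e-13).

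Both H2A.Z genes thus fell under TMM scaling, but H2afz did not with the length trend removed. H2afz made up 88.95%, 91.3%, 89.1% and 89.8% of the counts of the pair in the GFP libraries. Its share was 91.4%, 91.2%, 90.5% and 90.6% with Trim27. These shares overlapped. The log2 ratio of H2afz to H2afv, which does not depend on scaling between libraries, was higher by 0.19 with Trim27 (exact two-sided permutation test over 8 libraries, p = 0.143, adjusted p = 0.143 over the 2 pairs tested). No length offset was applied to this ratio, and it may depend on the length trend. With that trend removed H2afz was at 0.06 and H2afv at -0.44. Summed over both genes, the level fell from 1565 ± 32.02 to 1028 ± 23.2 CPM (SD, n = 4 each), a ratio of 0.657.

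H2afj, which encodes an H2A form with a distinct tail, was at 690.1, 579.7, 643.4 and 604.0 CPM in the GFP libraries. It was at 271.0, 320.7, 315.6 and 297.5 CPM in the Trim27 libraries. The lowest GFP library was well above the highest Trim27 library. The mean fell from 629.3 ± 48.3 to 301.2 ± 22.4 CPM (SD, n = 4 each), with a log2 fold change of -1.06 (SE 0.06, edgeR adjusted p = 5.05e-16). Of the 2644 tested genes that averaged 6 log2 CPM or more, 11.9% had a log2 fold change of -1 or lower, so a fall of this size was not rare.

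H2afy, which encodes macroH2A1, was at 59.4, 57.3, 59.7 and 55.3 CPM in the GFP libraries. In the Trim27 libraries it was at 129.5, 125.3, 119.1 and 123.0 CPM. No library of either group came near the other group. The mean rose from 57.9 ± 2.03 to 124.2 ± 4.36 CPM (SD, n = 4 each), and the log2 fold change was 1.10 (SE 0.06, edgeR adjusted p = 2.89e-16). A rise of at least 1 on the log2 scale was found for 5.6% of the 2644 abundant genes. H2afy2, which encodes macroH2A2, had 0 counts in each GFP library and 80, 117, 100 and 67 counts in Trim27 replicates 1 to 4. Against a floor of 3 counts over the GFP group it was at least 69.7-fold higher. This bound covers counting error only and takes each count as a separate fragment, which is uncertain here. H2afy2 overlaps Aifm2 on the opposite strand by 596 bases, and counts of the 2 genes cannot be told apart where strand was not used.

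H2afx, which encodes the H2A.X that marks DNA breaks when phosphorylated, was at 218.5, 193.0, 207.6 and 199.8 CPM in the GFP libraries. It was at 170.3, 197.7, 192.2 and 183.6 CPM in the Trim27 libraries. The groups overlapped, since Trim27 replicate 2 lay above GFP replicate 2. The means were 204.7 ± 10.97 and 186.0 ± 11.9 CPM (SD, n = 4 each), and the log2 fold change was -0.14 (SE 0.06, edgeR adjusted p = 0.0222). This small fall depended on the scaling. It was 0.17 (adjusted p = 0.00458) with library size alone, -0.11 (adjusted p = 0.0884) without GFP replicate 1 and -0.13 (adjusted p = 0.05, no longer called) without GFP replicate 3, so no direction is given for H2afx.

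**Figure D1:**
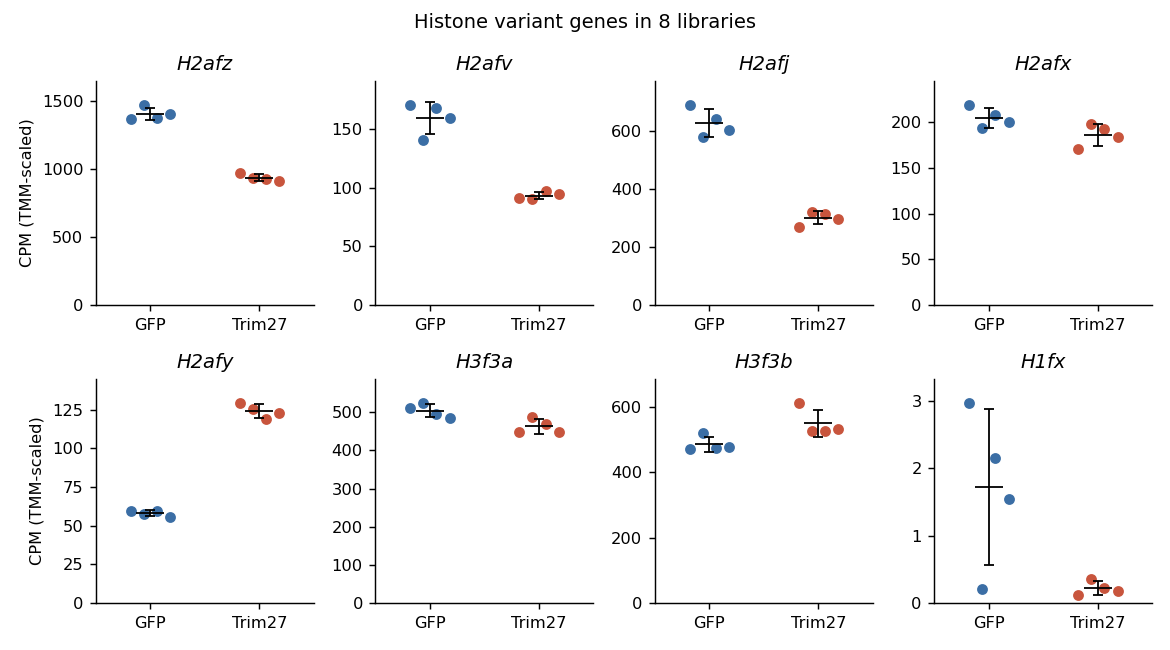
Level of each histone variant gene (CPM of the TMM-scaled library size, linear axis from 0) in the 4 GFP (blue) and 4 Trim27 (red) libraries, with points for libraries in order of replicate number and bars for the mean and SD. H2afz, H2afv and H2afj are lower and H2afy is higher in all 4 Trim27 libraries, while H2afx and H3f3a overlap between groups, and H1fx rests on 61 counts over the GFP group and 14 over the Trim27 group.

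The makeup of the H2A variant messages, counted within each library and therefore free of scaling between libraries, shifted mainly between H2afj and H2afy. Of the counts of the 5 genes, H2afy went from 2.36% ± 0.0591 under GFP to 7.58% ± 0.302 under Trim27 (n = 4 libraries each, ± SD). H2afj went from 25.6% ± 1.62 to 18.4% ± 1.20, and H2afx from 8.33% ± 0.338 to 11.3% ± 0.615. For these 3 genes no library of one group reached the range of the other. H2afz took 57.2% ± 2.42 and 57.0% ± 1.59, and H2afv 6.49% ± 0.505 and 5.68% ± 0.229, with overlap between the groups. These shares are a description, with no test, and the length trend was not removed from them.

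**Figure D2:**
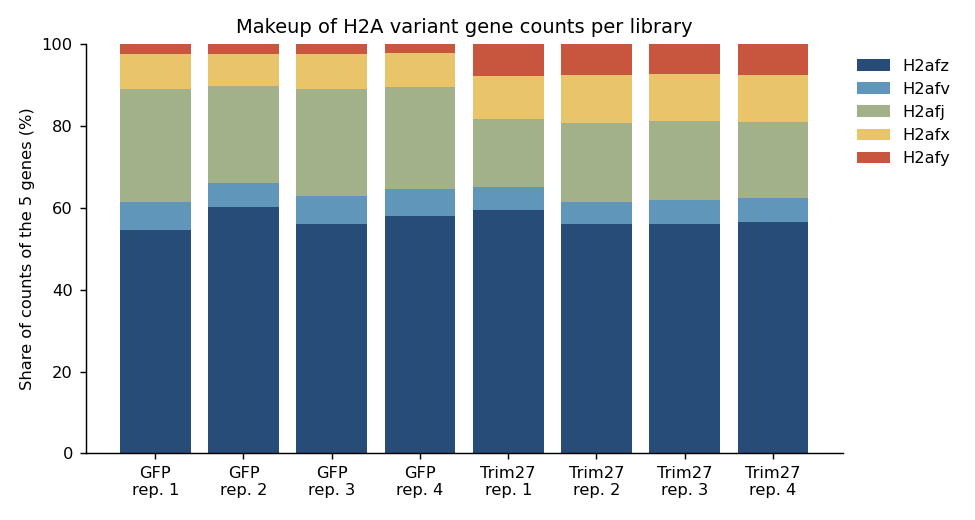
Share of each H2A variant gene among the counts of the 5 genes (%, stacked to 100) in each of the 8 libraries. The H2afy part (top, red) grows from 2.36% on average in the GFP libraries to 7.58% in the Trim27 libraries and the H2afj part (green) shrinks from 25.6% to 18.4%, while H2afz stays near 57%.

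Under TMM scaling the H3.3 genes changed little. The direction of H3f3a followed the scaling, while that of H3f3b turned only with the length trend and its level removed. H3f3a was at 511.5, 525.2, 496.7 and 486.1 CPM in the GFP libraries. With Trim27 it was at 449.0, 488.6, 469.0 and 447.9 CPM. Trim27 replicate 2 lay above GFP replicate 4, so the groups overlapped. The log2 fold change was -0.12 (SE 0.05, edgeR adjusted p = 0.0167), but it was 0.18 (adjusted p = 0.000318) with library size alone and 0.10 (adjusted p = 0.0234) with TMM factors from abundant genes. Without GFP replicate 2 it was -0.11 (adjusted p = 0.0583), and with the length trend and its level removed it was -0.52 (adjusted p = 1.68e-11).

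H3f3b was at 471.7, 519.5, 475.8 and 475.8 CPM in the GFP libraries. It was at 612.8, 527.3, 525.4 and 533.0 CPM in the Trim27 libraries. Trim27 replicate 1 stood above the rest of its group, and the other 3 were just above the highest GFP library. The log2 fold change was 0.18 (SE 0.05, edgeR adjusted p = 0.00243), and without Trim27 replicate 1 it was 0.09 (adjusted p = 0.0343). With both the length trend and its level removed, a setting chosen after seeing the data, it was -0.16 (adjusted p = 0.00599), and with library size alone it was 0.48 (adjusted p = 4.19e-09). Together, under TMM scaling, H3f3a and H3f3b averaged 990.6 ± 37.1 CPM under GFP and 1013 ± 35.4 CPM under Trim27 (n = 4 libraries each, ± SD).

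Within the pair, H3f3a made up 52.0%, 50.3%, 51.1% and 50.5% of the counts in GFP replicates 1 to 4. Its share was 42.3%, 48.1%, 47.2% and 45.7% in Trim27 replicates 1 to 4. All 4 Trim27 libraries were below all GFP libraries. The log2 ratio of H3f3a to H3f3b changed by -0.30 with Trim27. The exact two-sided permutation test gave p = 0.0286, the smallest that 4 against 4 libraries allow, and adjusted p = 0.0571 over the 2 pairs tested, so the shift did not pass after adjustment. Another pair, H1f0 and H1fx, was planned but not analysed here.

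Copies of H3f3a were much lower. H3f3c, whose sequence is shown above, was at 55.3 ± 2.88 and 52.3 ± 2.47 CPM (SD, n = 4 each; log2 fold change -0.08, edgeR adjusted p = 0.299). Its counts ranged from 10.4% to 11.5% of those of H3f3a under GFP and from 10.5% to 12.4% under Trim27. The processed pseudogenes H3f3a-ps1 (3.96 and 3.02 CPM) and H3f3a-ps2 (1.92 and 2.08 CPM) did not pass either. The copies H2af-ps, with 0 counts in every library, and H2afy3, with 0 counts over the GFP group and 7 over the Trim27 group, were too low to be tested. The antisense gene H3f3aos, which overlaps H3f3a, had 2 counts over each group.

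H1fx, which encodes the linker histone H1.10, had 26, 2, 18 and 15 counts in GFP replicates 1 to 4 and 2, 6, 4 and 2 counts in Trim27 replicates 1 to 4. GFP replicate 2 was as low as the Trim27 libraries, so the groups overlapped. Without the filter on low counts the log2 fold change was -2.86 (edgeR adjusted p = 1.32e-06), a value that rests on 61 counts over the GFP group and 14 over the Trim27 group. Gm5577, antisense to H1fx, had 0 counts over the GFP group and 22 over the Trim27 group.

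Levels can be compared between genes only per length, here CPM per kilobase of the longest coding transcript in GENCODE M21. In the GFP group H2afz was highest at 1314 ± 42.6 CPM per kilobase, followed by H2afj (344 ± 26.4), H3f3b (193 ± 8.99), H3f3a (178 ± 6.01), H2afx (148 ± 7.92), H2afv (97.6 ± 8.32), H2afy (28.3 ± 0.992) and H1fx (1.41 ± 0.955; SD, n = 4 each). In the Trim27 group the order was H2afz (875 ± 23.5 CPM per kilobase), H3f3b (219 ± 16.8), H2afj (165 ± 12.3), H3f3a (163 ± 6.78), H2afx (134 ± 8.62), H2afy (60.7 ± 2.13), H2afv (57.0 ± 1.88) and H1fx (0.179 ± 0.0854). There H2afj and H3f3a differed by less than their spread. These places depend on the transcript chosen. With the 888-base form H3f3a was at 569 ± 19.2 (GFP) and 522 ± 21.7 (Trim27) CPM per kilobase. With the 519-base form H2afv was at 307 ± 26.2 and 179 ± 5.90 CPM per kilobase, which is above H2afy in both groups, and with the 1993-base form H3f3b was at 244 ± 11.3 and 276 ± 21.2 CPM per kilobase.

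H2afz, H2afv and H2afj were lower with Trim27 under TMM scaling, although H2afz did not fall with the length trend removed. The sequence before their start sites is shown. These genes were picked by their fold changes, so matches that they share are no test of shared control, which was not tested. The stretches run from 200 to 11 bases before the start, 5′ to 3′ on the gene's strand, from RefSeq on GRCm38.p6, and capitals mark the motif CCAAT on either strand (ATTGG on the other). The counts were made on another build (NCBIM37), so these coordinates locate the printed sequences only.
H2afz, chr3:137864287-137864476, plus strand: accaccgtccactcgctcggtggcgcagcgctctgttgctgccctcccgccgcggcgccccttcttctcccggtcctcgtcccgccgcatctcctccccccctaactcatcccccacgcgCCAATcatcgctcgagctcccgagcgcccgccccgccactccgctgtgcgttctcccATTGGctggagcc
H2afv, chr11:6444454-6444643, minus strand: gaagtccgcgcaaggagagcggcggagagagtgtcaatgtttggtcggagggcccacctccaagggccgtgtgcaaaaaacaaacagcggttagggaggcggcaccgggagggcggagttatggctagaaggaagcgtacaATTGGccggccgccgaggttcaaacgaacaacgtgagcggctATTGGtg
H2afj, chr6:136808048-136808237, plus strand: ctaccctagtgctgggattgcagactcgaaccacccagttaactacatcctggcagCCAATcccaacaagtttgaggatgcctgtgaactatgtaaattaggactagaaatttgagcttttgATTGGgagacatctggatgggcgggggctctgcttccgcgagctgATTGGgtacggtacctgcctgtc
In the full windows, from 250 bases before to 50 after the start, H2afz held 3 matches, H2afv 4 and H2afj 3. H3f3b held 4 and H3f3a 1, while H2afy and H1fx held 0. Of 32851 promoter windows of this length, 37.4% held at least 1 match. Entries were found for 8 of the 9 genes. A second motif, TTTNGCGC on either strand, was searched too. It had 0 matches in these 8 genes, where 1.38% of all windows held it. A match is a description of letters and not of a bound factor.

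The genes whose profile over the 8 libraries lay nearest to each member were sought among 2540 abundant genes, by the root mean square difference of centred log2 CPM. Nearest to H2afz was Naca, a subunit of the nascent polypeptide complex (difference 0.03, its own log2 fold change -0.60). Nearest to H2afv was Ndufa7, a complex I subunit (0.06, -0.78), and nearest to H2afj was Josd2, a deubiquitinase (0.03, -1.06). Igbp1 was nearest to H2afy (0.03, 1.10), Cdc37, a kinase chaperone, to H2afx (0.02, -0.15), Capzb, an actin capping subunit, to H3f3a (0.03, -0.09) and Rnf7, a cullin ligase subunit, to H3f3b (0.04, 0.20).

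Over all tested genes, fold changes moved with transcript length. The median log2 fold change was -0.82 for transcripts under 500 bases, -0.57 for transcripts of 500 to 1000 bases, -0.02 from 1000 to 2000, 0.32 from 2000 to 4000 and 0.63 from 4000 to 8000. Among the abundant genes it was -1.07, -0.74, -0.28, -0.05 and 0.03 in the same classes. By their longest coding transcripts, H2afz (1069 bases), H2afv (1633) and H2afj (1831) lie in the class with a median of -0.28 and fell by more than that. However, H2afz lies near the lower edge of this class. The median of the next shorter class, -0.74, is below the -0.59 of H2afz. The 519-base form of H2afv would lie in that shorter class as well, where the -0.78 of H2afv is close to the median. The length offset used the longest coding transcript only. H2afy has a longest coding transcript of 2046 bases and rose well above the median of its class. With the trend on length removed, H2afv (-0.44), H2afj (-0.81) and H2afy (1.28) kept their directions, while H2afz was at 0.06 and not called. Library size alone moved the median of all tested genes from 0.14 to 0.44. Relative to that median H2afy was at 0.96 and H2afj at -1.20, values that a change of scaling leaves alike by construction.

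**Figure D3:**
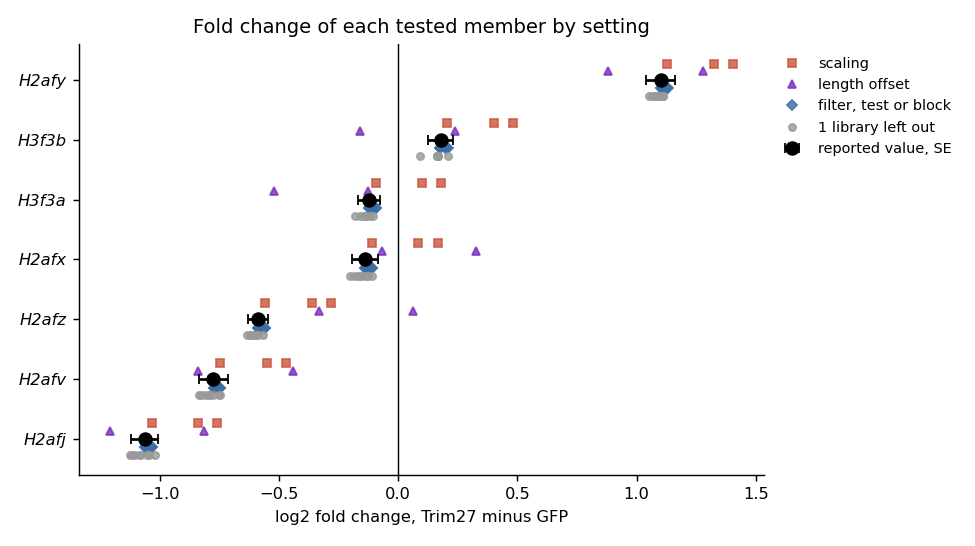
Log2 fold change (Trim27 minus GFP) of the 7 tested members as reported, with its SE (black), under 3 other scalings (squares), 2 length offsets (triangles), other filters, tests or the replicate block (diamonds) and with 1 library left out (grey). H2afy stays above 0 and H2afv and H2afj below 0 in every setting drawn, H2afz crosses 0 with 1 length offset, and H2afx, H3f3a and H3f3b lie on both sides of 0.

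The machinery that places these variants was described from gene lists chosen with earlier results of these data known, beside all tested genes, of which 47.5% rose and 38.0% fell, with a median log2 fold change of 0.14. Of 19 genes for H2A.Z exchange, which load or remove H2A.Z through the SRCAP, TIP60-p400 and INO80 complexes, 11 were up, 6 down and 2 not past the threshold (median 0.26). Ino80, the motor of its complex, rose from 3.19 ± 0.802 to 33.7 ± 1.04 CPM (log2 fold change 3.39), Yeats4 rose from 63.7 ± 4.47 to 125.4 ± 6.50 CPM (0.98), and Epc2 rose from 12 counts over the GFP group to 802. Srcap, the motor that loads H2A.Z, fell (-2.80), as did the subunits Actr6 (-4.37), Znhit1 (-1.11) and Vps72 (-0.77) of its complex. Other subunits of that complex in the list rose, namely Yeats4, Ruvbl1 (0.58), Ruvbl2 (0.28) and Dmap1 (0.25), so the complex did not move in 1 direction. Anp32e, which removes H2A.Z, rose (1.02). Apart from Yeats4, the genes from Srcap on were named after their values were seen. With the length trend and level removed, 7 genes of the list rose and 9 fell, so its balance turned.

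Of 8 chaperone genes for H3.3, 7 rose and 1 fell (median 1.31), where 85.5% of all tested genes were called and 47.5% rose. Asf1a, which hands H3-H4 dimers to other chaperones, rose from 8.66 ± 1.83 to 45.98 ± 7.10 CPM (2.41), and Ubn1, a subunit of the HIRA complex, from 15.3 ± 2.52 to 47.7 ± 2.10 CPM (1.65). Dek, a chromatin protein, rose from 12.6 ± 2.90 to 52.0 ± 6.94 CPM (2.04), and Daxx, chosen here as the only one to fall, was at -0.78. Asf1a overlaps Mcm9 and Dek overlaps Kdm1b on the opposite strand, so their counts are uncertain. With the length trend and level removed, 4 rose and 2 fell. The H3.3 genes themselves were at -0.12 and 0.18.

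Of 14 tested genes for replication-coupled and general histone chaperones, 3 went up, 3 went down and 8 stayed short of the threshold (median 0.03). Npm1, an abundant nucleolar chaperone, rose from 3758 ± 262.2 to 5176 ± 384.6 CPM (0.46), Hat1, which acetylates new H4, rose by 1.01 and Npm3 fell (-0.56). Npm3 was at 0.21 with the length trend removed. The split of this list followed the scaling, from 11 rises beside 1 fall (library size alone) and 10 beside 1 (TMM factors from abundant genes) to 6 up with the length trend removed, 10 down with its level removed as well, and 5 down without Trim27 replicate 1.

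Among 17 genes of H2A.X damage signalling, 9 genes rose and 7 fell (median 0.27). With the length trend and level removed, 4 of them rose and 9 fell. Prkdc, the catalytic subunit of the kinase DNA-PK that phosphorylates H2A.X, fell from 28.2 ± 0.724 to 6.23 ± 0.268 CPM (-2.17), and the checkpoint kinase gene Chek2 fell from 18.4 ± 0.570 to 3.37 ± 0.817 CPM (-2.42). Eya3, a phosphatase that acts on H2A.X, rose from 1.27 ± 0.460 to 45.99 ± 4.02 CPM (5.17). Other genes of this list, named after their values were seen, went both ways. Atm, Mdc1 (0.66), Rnf8 (0.54), Trp53bp1 (3.19) and Chek1 (0.63) rose, while Atr (-1.29), Rnf168 (-1.18) and Brca1 (-0.63) fell. Phosphorylation of H2A.X was not measured. Of 4 genes listed as macroH2A partners or tied to ADP-ribose, Parp1 (0.95) and Parp2 (1.49) rose. Parg (-1.53) and Parp9, named after its value was seen (-1.17), fell.

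The replication-dependent histone genes, which lack a poly(A) tail in dividing cells and are caught poorly in libraries of polyadenylated RNA, were mostly lower. Of the 59 such genes listed, 24 were tested, 5 rose, 16 fell and 3 did not pass, with a median log2 fold change of -1.53. Over all tested genes 47.5% rose and 38.0% fell, and those with transcripts under 500 bases had a median of -0.82. How much of these falls goes with transcript length was not tested. Hist1h2bj fell from 31.0 ± 2.09 to 8.03 ± 1.03 CPM (-1.95, or -0.84 with the length trend removed) and Hist1h4d from 12.3 ± 1.83 to 0.967 ± 0.454 CPM (-3.60), while the linker gene Hist1h1c rose from 6.33 ± 1.64 to 30.3 ± 1.94 CPM (2.27). Summed over all 59, the level went from 254.6 ± 6.10 to 130.2 ± 8.99 CPM, a ratio of 0.511, beside the 3449 ± 51.8 and 2653 ± 48.3 CPM of the 8 members. Several of these genes are near copies of each other, so reads may be split among them. With the length trend removed 12 fell and 6 rose, without the filter 24 fell and 7 rose, and with a filter of 10 CPM 4 fell and 1 rose.

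Of 13 factors that process those messages, 10 were up and 3 down (median 0.54), where 47.5% of all tested genes rose and 38.0% fell. Sympk (1.74) and Cpsf2 (1.36), both parts of the cleavage complex, rose, and the cap-binding gene Ncbp2, which overlaps Senp5, fell (-1.53). With the length trend and level removed 6 rose and 4 fell. Of 23 tested S phase genes, 14 were higher and 7 lower (median 0.30), with Cdc45 (1.56) and Mcm4 (0.70) among the rises and Ccne1 among the falls (-1.25). Under library size alone 16 rose and 3 fell. With the length trend and level removed 8 rose and 10 fell, so the balance of this list turned. The summed level of the S phase list went from 4249 ± 31.5 to 4592 ± 20.3 CPM (n = 4 libraries each, ± SD), a ratio of 1.08, beside the ratio of 0.657 for the 2 H2A.Z genes. Both ratios hold under TMM scaling only. H2afz, which makes up most of the H2A.Z sum, was at 0.06 with the length trend removed.

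Of the other histone variant genes, 6 of 10 were at 0 in every library and 4 were tested. Besides H2afy2 and H3f3c, these were Cenpa, the centromeric H3 variant (459.0 ± 10.4 and 395.8 ± 8.77 CPM, -0.21), and its chaperone Hjurp (75.6 ± 3.76 and 53.3 ± 4.57 CPM, -0.51). Hjurp and Cenpa fell, but Cenpa was at 0.09 with library size alone, 0.01 with TMM factors from abundant genes and 0.21 with the length trend removed, so its direction is not settled. Under those settings 3, 1 and 3 of the 4 rose and 1 fell in each.

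**Figure D4:**
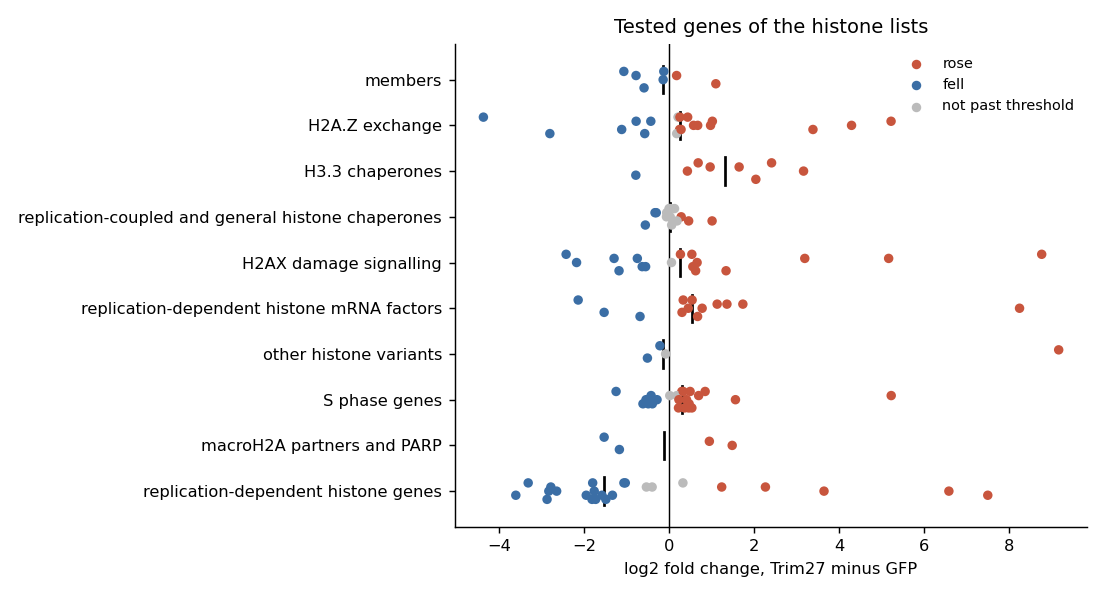
Log2 fold change (Trim27 minus GFP) of each tested gene in the members and in the 9 lists, coloured by whether it rose, fell or did not pass an adjusted p of 0.05, with a black line at each list's median. The H3.3 chaperones lie mostly to the right (median 1.31) and the replication-dependent histone genes mostly to the left (median -1.53), while the members span -1.06 to 1.10; the fitted values farthest to the right belong to genes with few or no counts in the GFP group and are not bounds.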

How the data were processed

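RNA was sequenced in 8 libraries, 4 per group. Raw counts by gene symbol came in a single file that the authors deposited, and per the submitters' processing notes bcl2fastq, HISAT2, featureCounts and the build NCBIM37 were used. No source used here gives the strand or multiple mapping settings. One line without a gene name held 0 counts and was left out. Of counts from 1 to 10, 64.7% to 72.0% were even in each library. Each count may therefore not stand for 1 fragment.

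Counts were tested in R 4.3.3 with edgeR 4.0.16 (filterByExpr, minimum count 10 and total 15; TMM; robust quasi-likelihood test, no covariate; Benjamini-Hochberg adjustment over 11040 genes, threshold 0.05). SEs come from the fold change and its F statistic. The procedure was tested on simulated data in which few genes changed, equally up and down, with no length trend. In the real data 85.5% of tested genes were called, so that run does not bear on the scaling or the length trend. Pair ratios used a pseudocount of 0.5 and exact permutation. Alternatives used DESeq2 1.42.0 and limma 3.58.1, and a length offset with GENCODE M21 lengths (96.0% of tested genes). Members and lists were chosen with earlier results of these data known. Named were all members, Trim27, for each list up to 3 called genes of smallest p, the nearest profile of each member, and neighbours or copies of members, of which 1 is not reported here.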

Additional observations from a re-analysis of the deposited data

Results flagged for a closer look

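In groups of 4, a library was singled out where its gap to the nearest other relative to the group's range exceeded Dixon's critical value. Of 103 such groups 12 met this, and chance alone gives about 1 in 20.

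Among the members this concerned only H3f3b, with GFP replicate 2 highest at 519.5 CPM (next 475.8) and Trim27 replicate 1 highest at 612.8 CPM (next 533.0). Rnf7 was highest in Trim27 replicate 1 (227.1 CPM), but it was chosen as the profile nearest to H3f3b, which favours this likeness. Dek was highest in Trim27 replicate 1 as well (62.3 CPM). Epc2 had 0 CPM in GFP replicate 4, and Yeats4 was lowest in GFP replicate 1 (57.0 CPM). Cpsf2 was lowest in replicate 3 of both groups (19.3 and 52.6 CPM), and Dpagt1 was highest in Trim27 replicate 3 (86.5 CPM). Dnajb14 had counts only in GFP replicate 3 of its group (0.239 CPM), and H3f3aos only in replicate 1 of each group (0.228 and 0.120 CPM). The causes were not tested.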

How the results depend on the processing

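H2afy, H2afv and H2afj kept their direction and passed the threshold under all 18 alternatives run. H2afz did so except with the length trend removed (0.062). H2afx was -0.11 (DESeq2 size factors), -0.11 (no filter), -0.11 (DESeq2 Wald test), -0.067 (length trend and level removed), all short of the threshold, and 0.17 (library size alone), 0.085 (TMM on abundant genes) and 0.33 (length trend removed); leaving out single libraries gave -0.20 to -0.11. H3f3a was -0.095 with DESeq2 size factors, -0.093 with no filter, 0.18 with library size alone and 0.10 with TMM on abundant genes; leaving out libraries gave -0.18 to -0.11. H3f3b was -0.16 with the length trend and level removed.

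Of the members, 4 rose with library size alone, 1 rose after removal of length trend and level, and 3 fell under DESeq2 size factors, TMM on abundant genes, library size alone or the length trend removed. Over all genes, 3453 rose with the filter of 10 CPM, which tests fewer genes, and 5976 rose and 3373 fell with TMM on abundant genes, against 5249 and 4193. The share of rises among calls was 55.6%, and it was 66.9% with library size, 63.9% with TMM on abundant genes, 63.6% with the length trend removed and 47.6% with its level removed too. In the pathway lists together, 61 rose and 47 fell as reported. These counts were 40 and 63 with the length trend and level removed, and 50 and 31 with the filter of 10 CPM. Without single libraries the log2 ratio of H3f3a to H3f3b was -0.34 to -0.23 and that of H2afz to H2afv 0.14 to 0.27. Without GFP replicate 2 adjusted p was 0.0286 (exact permutation) for both, the smallest p that 3 against 4 libraries allow. That library had the highest H2afz to H2afv ratio of the GFP group, so leaving it out is no support for either shift.

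Replicate numbers did not pair the libraries (correlations of deviations -0.23 to 0.06). With the replicate block 5133 genes rose and 4027 fell, and H2afx was at -0.14 with adjusted p = 0.0567 by edgeR.

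Among other named genes the sign turned for Npm3 (0.21), Ndufa7 (0.27), Cenpa (0.21), Capzb (0.21), H3f3c (1.08) and H3f3a-ps1 (0.76) with the length trend removed, for Cenpa (0.090), Cdc37 (0.15), Capzb (0.21) and H3f3c (0.22) with library size alone, for Cenpa (0.010), Cdc37 (0.074), Capzb (0.13) and H3f3c (0.14) with TMM on abundant genes, and for H3f3c (0.68) and H3f3a-ps1 (0.36) with the length level removed as well. Without single libraries H3f3a-ps2 was -0.12 to 0.37. The causes were not tested. Depth limits H1fx and H2afy2.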
